A study of Homo sapiens with 7 samples.

Results

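MIF, PTMA and PARK7 are 3 protein-coding genes whose RNA was found joined to eIF3a in HEK293T cells; eIF3a is part of eIF3, a factor that starts translation. Their sites were taken from the deposited eIF3a list as every entry on the plus strand that overlapped 1 of 3 windows of the human genome build hg19. The windows were chr22:24236560-24237420 for MIF, chr2:232573200-232578260 for PTMA and chr1:8021700-8045350 for PARK7. They held 7 of the 4013 listed entries. A pair of PARK7 entries showed the same read cluster, so the 7 entries were 6 clusters of the 3604 in the list, and of the 3566 on the primary chromosomes. MIF had 1 cluster, PTMA 2 and PARK7 3. The genes were selected on the score, the reads and the profile length of these sites, so those values are given as a description, with no test.

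The series, whose title concerns N6-methyladenosine (m6A) in 5' untranslated regions and translation without the cap, asked where eIF3a contacts RNA. HEK293T is a human embryonic kidney line with the large T antigen of SV40. The cells took up 4-thiouridine for 8 h and were irradiated at 354 nm, and the labels name no heat shock for them. An antibody against eIF3a then pulled down the joined RNA (PAR-iCLIP), and 2 replicates were made. The list gave 1 set of values with no replicate attached to a read, so no value below has a replicate error. The other 5 samples were m6A libraries of HEK293T after heat shock and of HepG2, a liver carcinoma line, with and without heat shock, which were not analysed here. No comparison between conditions was therefore made, and how much of each RNA the cells held was not measured in the data used.

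eIF3 is a large complex that binds the small ribosomal subunit and helps to bring it to the 5' part of an mRNA. In PAR-iCLIP, ultraviolet light joins a protein to RNA at bases where 4-thiouridine has taken the place of uridine, so RNA without uridine near the protein is seen poorly. MIF encodes macrophage migration inhibitory factor, a small cytokine that also has tautomerase activity and is made by many cell types. PTMA encodes prothymosin alpha, a very acidic, disordered protein of the nucleus that binds histones and is abundant in dividing cells. PARK7 encodes DJ-1, a protein sensitive to oxidation that protects cells from oxidative stress, and its loss causes a recessive form of early parkinsonism. None of the 3 is a component of the translation machinery.

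The first 25 bases of each gene are shown because the sites lay near the left end of the windows, toward the 5' end of these plus-strand genes, and because the thymines, in capitals, are where 4-thiouridine could be taken up in the RNA. They are the bases that follow the RefSeq gene start in GRCh38.p14, on the plus strand, 5' to 3', and all 3 genes were matched by symbol. That build differs from hg19, so no read was placed on these bases.
MIF: agTggTgTccgagaagTcaggcacg
PTMA: cccccacTggcTgcTcTgaaaagcc
PARK7: gcgTTcaTTTTcagccTggTgTggg

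The genes differed in thymines at their start. PARK7 had 9 among its first 25 bases, where 35116 genes had a median of 5 with quartiles of 3 and 7. MIF and PTMA had 4 each. Over the first 50 bases MIF had 7 thymines, PTMA 14 and PARK7 12, against a median of 10 with quartiles of 7 and 13. MIF, the gene with the most reads, thus had the fewest thymines in this stretch of 50 bases. Whether thymines bear on the number of reads was not tested. The share of G and C over the 50 bases was 70.0% in MIF, 56.0% in PTMA and 64.0% in PARK7, with a median of 60.0% over all genes. The letters GGAC, part of the sequence in which m6A is most often found, did not occur on the RNA strand in the first 50 bases of any of the 3 genes, and occurred once on the other strand in MIF. They occurred on the RNA strand in 18.9% of genes and on either strand in 33.5%. GGACT, which contains GGAC, was in none of the 3 on either strand and in 9.62% of all genes. The absence of these letters in a window of 50 bases says nothing of the rest of the mRNA.

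Each listed site carried a score, the highest number of reads lying over 1 base of its cluster, and a profile of coverage along the whole cluster. The number of reads was the area under the profile divided by 25. Each of the 6 profiles could be split without remainder into reads of 25 nt, and none of them into reads of any other length from 20 to 35 nt. The same held for all 3113 distinct profiles of the list. In each of the 6 clusters, every read start held 1 read. Where starts hold 1 read each, at most 25 such reads can lie over a base, so the score has a fixed ceiling. The number of reads is then bounded as well, by the bases at which a read could start. There were 209 of these in MIF, and their number grows with the length of the profile.

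MIF held 96 reads in 1 cluster (95% exact Poisson interval 77.8 to 117, which covers counting error only, as do all intervals here). Such intervals assume counts without an upper bound, whereas each start here held 1 read, so they are only a rough guide to that error. The listed interval was chr22:24236565-24236661, and it began 5 nt from the left end of the window. Its score of 24 was the highest of the 3566 clusters on the primary chromosomes, and 1 below the ceiling. By reads it was less extreme: 6 clusters held more and 1 held the same number. By length of the profile, 233 nt, 54 clusters were longer. MIF therefore stood first by the height of its summit, near the top by reads and lower by length.

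PTMA held 74 reads (58.1 to 92.9) in 2 clusters with a gap of 43 nt between their listed intervals. Those intervals lacked 3 nt and 40 nt of their clusters at an unknown end, so the clusters may lie closer together, or meet. The first, at chr2:232573235-232573291, held 20 reads (12.2 to 30.9) over 61 nt and scored 14. The second, at chr2:232573335-232573416, held 54 reads (40.6 to 70.5) over 123 nt and scored 22. That score was exceeded by 3 primary clusters and equalled by 7 others, while 56 clusters held more reads. The second cluster held 73.0% of the reads of PTMA.

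PARK7 held 31 reads (21.1 to 44.0) in 3 clusters, none of which came close to the scores of MIF or of the second PTMA cluster. The first, at chr1:8021724-8021768, held 7 reads (2.81 to 14.4) over 46 nt and scored 7. The second began 2 nt after the end of the first, at chr1:8021771-8021833, and held 9 reads (4.12 to 17.1) over 64 nt with a score of 6. The third lay 991 nt further on, at chr1:8022825-8022845, and held 15 reads (8.40 to 24.7) over 94 nt with a score of 10. By reads, the PARK7 clusters were ordinary members of the list: 51.4% of the primary clusters held fewer reads than the first, 63.0% fewer than the second and 79.8% fewer than the third. The median primary cluster held 6 reads, scored 5 and was 61 nt long.

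Of the 6 clusters, 2 scored 20 or more, those being MIF and the second of PTMA. Over all primary clusters 37 of 3566 did so, which is 1.04%. The genes were chosen with these scores in view, so the difference from that share is no result.

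**Figure D1:**
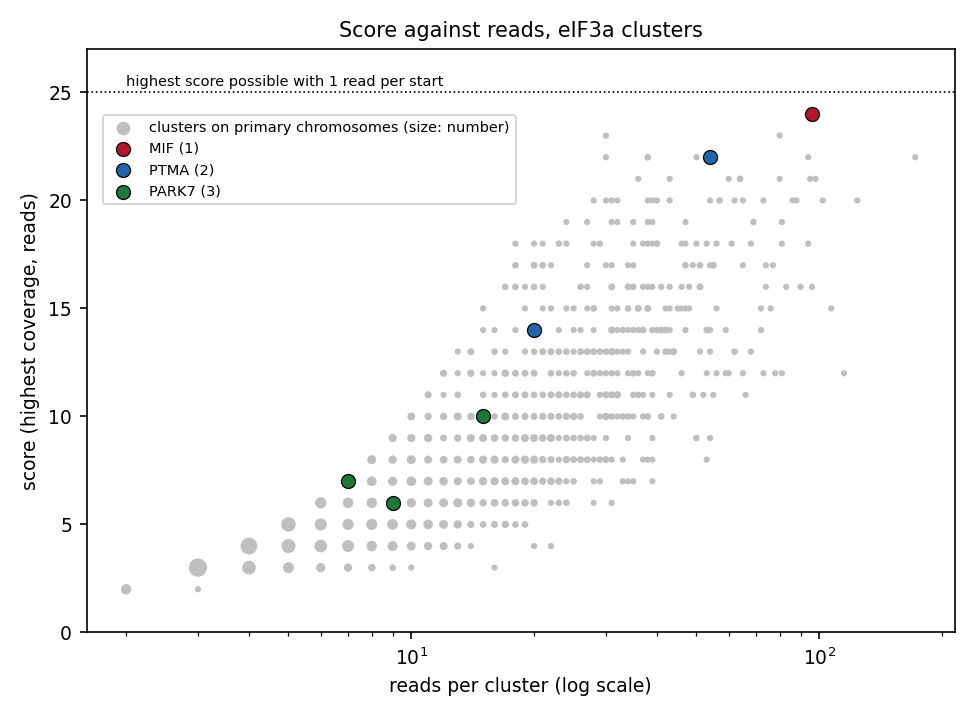
Score (highest coverage, in reads) against reads per cluster on a log scale, for the 3566 clusters on primary chromosomes (grey, larger where several share a value) and the 6 clusters of MIF, PTMA and PARK7 (coloured); the dotted line is the ceiling of 25. MIF, at 96 reads and a score of 24, and the second PTMA cluster, at 54 reads and 22, lie under the ceiling. The 3 PARK7 clusters, at 7 to 15 reads, lie lower on both axes.

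The genes also differed in how their reads were divided. The order by reads was MIF, PTMA and PARK7, with 96, 74 and 31, while the order by number of clusters was the reverse. With clusters at most 50 nt apart merged, PTMA had 1 cluster, as MIF did, so the reversal rests on keeping the PTMA clusters apart. The reads of MIF were 1.30 times those of PTMA and 3.10 times those of PARK7. The total profile length varied much less, being 233 nt for MIF, 184 nt for PTMA and 204 nt for PARK7. Per 100 nt of profile, MIF held 41.2 reads and PTMA 40.2, a ratio of 1.02, and PARK7 held 15.2. Per nt of profile, MIF and PTMA thus had nearly the same density of reads, and the larger number in MIF came with a longer profile. Per base at which a read could start, PTMA was denser, with 54.1% and 54.5% of them occupied against 45.9% in MIF. Each gene's summed reads were a small part of the 38419 on the primary chromosomes, 0.250% for MIF, 0.193% for PTMA and 0.0807% for PARK7.

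Set beside regions with as many clusters, MIF and PTMA were high and PARK7 was not. A region here joins clusters of a strand less than 1000 nt apart, and each of the 3 genes formed 1 region. MIF was 1 of 2361 regions with 1 cluster, whose median was 6 reads, and 5 of them held more reads than MIF. PTMA was 1 of 406 regions with 2 clusters, with a median of 14 reads, and 9 of them held more. PARK7 was 1 of 77 regions with 3 clusters, with a median of 24 reads, and 25 of them held more than its 31.

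**Figure D2:**
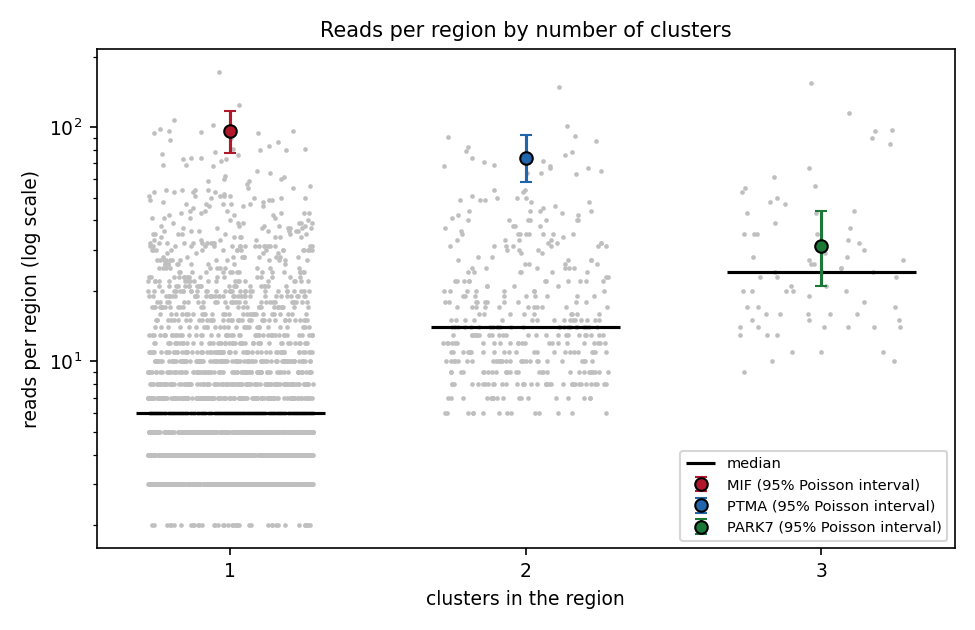
Reads per region on a log scale, for regions with 1, 2 or 3 clusters (grey points, spread sideways at random, with the median as a line), and for MIF, PTMA and PARK7 with 95% exact Poisson intervals. MIF (96 reads) and PTMA (74) lie far above the medians of 6 and 14, and PARK7 (31) lies nearer to its median of 24.

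The listed intervals of all 6 clusters lay near the left end of their windows, which is the 5' side of a plus-strand gene. The last listed base of MIF was 101 nt from the left end, in a window of 861 nt. For PTMA it was 216 nt in a window of 5061 nt, and for PARK7 it was 1145 nt in a window of 23651 nt. These are 11.7%, 4.27% and 4.84% of the windows. The distances hold for the listed intervals only. Those left out 135 nt of the MIF cluster and 72 nt of the third PARK7 cluster at an unknown end, so the whole clusters reached further on 1 side or both. The rest of each window held 0 listed sites on the plus strand, and the whole of each held 0 on the minus strand. The nearest other listed site of the same strand was 72413 nt away for MIF, 841884 nt for PTMA and 1272061 nt for PARK7. The filters of the list are unknown, so an empty stretch does not show that eIF3a made no contact there. Whether the list was limited to the 5' parts of genes was not tested. The other listed sites were not placed in their genes, so this position is not shown to be particular to MIF, PTMA and PARK7. Exons, untranslated regions and start codons of hg19 were not used here.

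The listed interval showed the whole cluster in only part of the cases, where an unshortened interval is 1 nt shorter than its profile. The first PARK7 cluster was listed in full, and so was the second, which was listed once with 63 nt and once with 25 nt, both from the same left end. The first PTMA cluster lacked 3 nt, and the second lacked 40 nt, or 32.8%. MIF lacked 135 nt, or 58.2% of its cluster, and the third PARK7 cluster lacked 72 nt, or 77.4%. In all, 4 of the 6 clusters were shortened, as were 1505 of the 3566 primary clusters (42.2%). The list does not say which end was cut. If only the right end of the MIF cluster was cut, 63 of its 96 reads started in the listed interval and the summit of 24 lay within it. If only the left end was cut, 10 reads started there and coverage reached 17. The cluster would then begin left of the window, since its listed interval began only 5 nt from the window's left end. For the third PARK7 cluster the listed interval reached a coverage of 8 with the right end cut and 2 with the left end cut, so its summit of 10 lay outside the interval in either case. For the second PTMA cluster the summit of 22 was inside in either case. Positions within a cluster are therefore given below from the first step of its profile, which was taken to run from left to right.

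The MIF cluster had a compound shape. A summit was counted where coverage stood at least 3 reads above the lowest point between it and any higher summit. MIF had 3 summits. Coverage rose to 24 at 45 to 47 nt, fell to 17, rose to 21 at 76 to 78 nt, fell to 10 and rose again to 19 at 125 to 128 nt. A thin tail followed, in which 6 reads started after the first 150 nt. Of the 485 primary clusters with 20 or more reads, 125 had 3 summits and 200 had 2, so this number was common among clusters with many reads.

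PTMA had 2 summits in each cluster. In the first, coverage reached 12 at 24 to 25 nt, fell to 9 and reached 14 at 37 to 38 nt. In the second it reached 16 at 35 nt, fell to 13 and reached 22 at 64 to 68 nt. The higher summit was thus the later in both PTMA clusters, and the earliest in MIF. Each PARK7 cluster had 1 summit, of 7 at 22 to 25 nt, 6 at 21 to 25 nt and 10 at 24 to 25 nt. Each of those lay within the first 25 nt of its cluster, the length of the first read. A single summit was the usual number, found in 82.2% of the 3566 primary clusters.

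**Figure D3:**
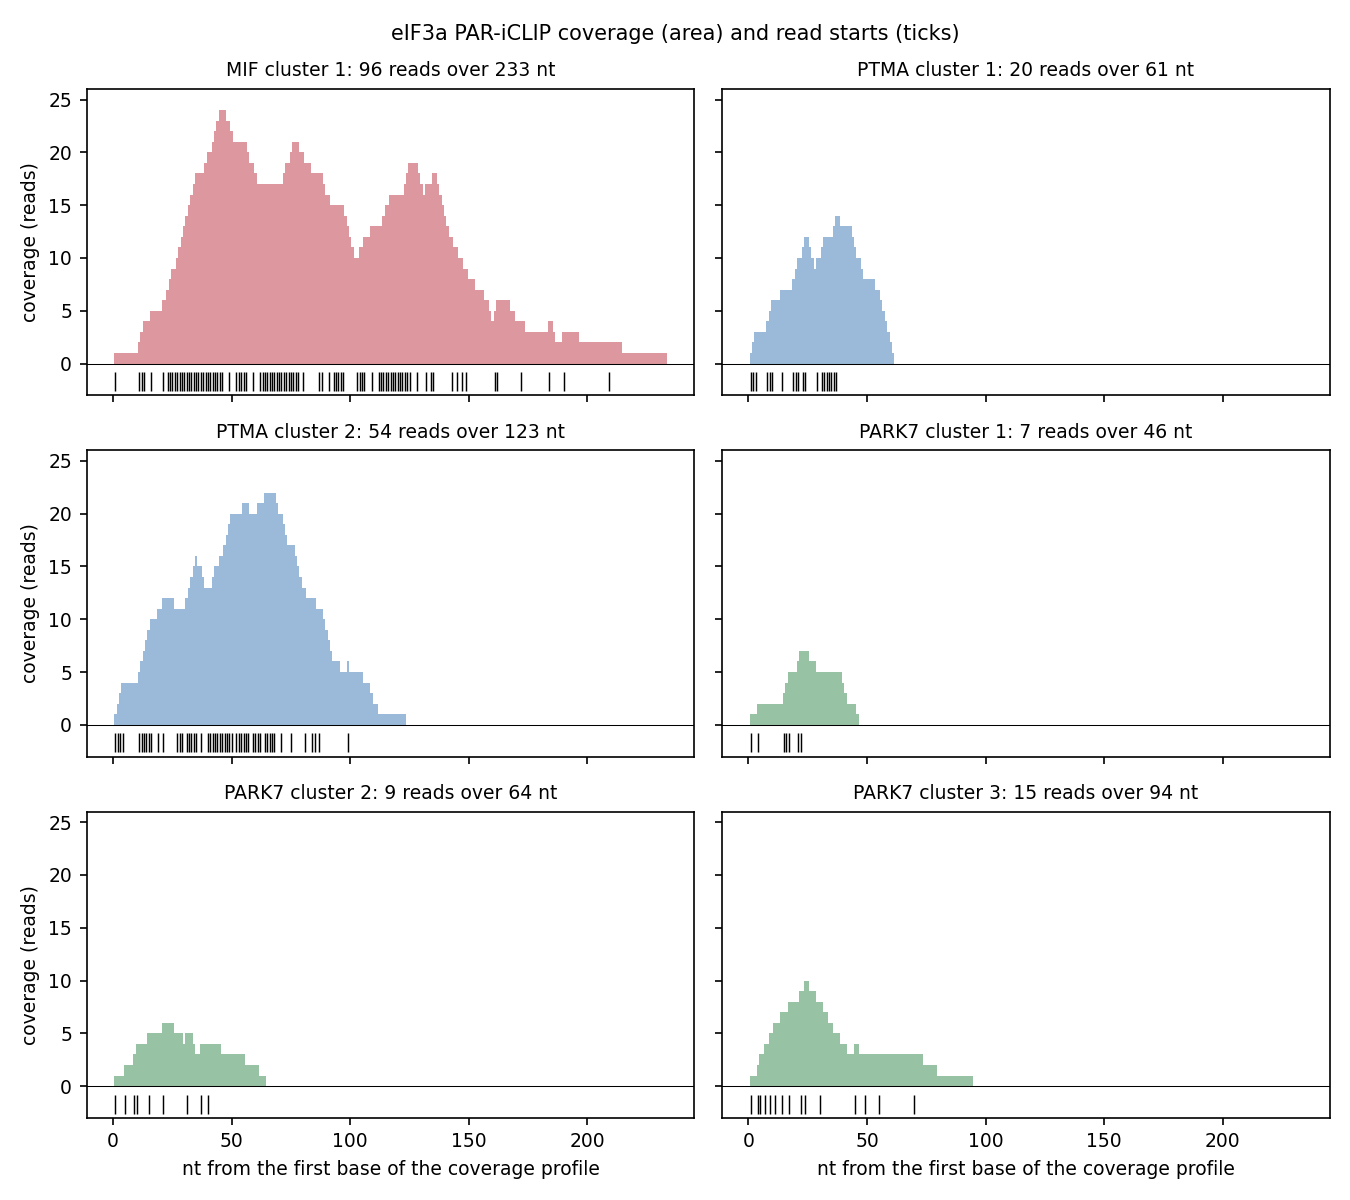
Coverage in reads (area) and read starts (ticks below the axis) along each of the 6 clusters, in nt from the first base of the coverage profile, on the same scales. MIF shows 3 summits of 24, 21 and 19 reads, both PTMA clusters end on the higher of 2 summits, and each PARK7 cluster has 1 summit of at most 10 reads.

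The read starts of MIF and PTMA were packed side by side. In MIF, 71.6% of the starts followed the one before at the next base, and in the PTMA clusters 68.4% and 69.8% did. In the 234 clusters of the plus strand with 20 or more reads the median was 39.3%, with quartiles of 26.4% and 51.7%. MIF had the highest share among these plus-strand clusters. It was not the highest over both strands, where the share reached 82.8% among the 485 clusters with 20 or more reads. In the PARK7 clusters the shares were 50%, 12.5% and 7.14%, from only 7, 9 and 15 starts. The share rises with the density of starts, which was used to choose the genes, so it is not separate evidence.

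The longest unbroken run of starts lay in MIF. From 23 to 46 nt, each of 24 consecutive bases was the start of 1 read, the longest such run of the 3566 primary clusters, where the median was 2 nt. The next longest were of 22 nt at chr11:17099189-17099220 and of 20 nt at chr5:180670801-180670906, both minus-strand clusters. MIF had further runs of 17 nt, from 62 to 78 nt, and of 14 nt, from 112 to 125 nt. These 3 runs ended at 46, 78 and 125 nt, each within the bases of a summit. Runs of 5 nt in MIF, from 52 to 56 nt and from 93 to 97 nt, did not end at a summit. Coverage can rise only where a read starts, so summits at the ends of long runs are no separate result. The longest run in PTMA was 11 nt, from 40 to 50 nt of its second cluster, and that of its first cluster was 7 nt. In PARK7 no run was longer than 3 nt. A score near the ceiling needs nearly every base beneath it to be a start, so the run in MIF largely restates its score and is no further result.

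Starts occupied 45.9% of the bases at which a read could start in MIF, 54.1% and 54.5% in the first and second PTMA clusters, and 31.8%, 22.5% and 21.4% in the PARK7 clusters. The median was 19.4% over the primary clusters, and 25% with an upper quartile of 34.4% over the 485 with 20 or more reads. Of the primary clusters, 313 had a higher share than MIF, 221 than the first PTMA cluster and 217 than the second. By this measure PTMA was more crowded than MIF, although its scores were lower. MIF combined its long run with a sparse tail: its largest gap between starts was 19 nt, against 12 nt in the second PTMA cluster and 5 nt in the first.

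The reads of MIF were weighted toward the left of the profile. In steps of 25 nt, 9, 22, 20, 12, 19 and 8 reads started in the first 6 steps, and 3, 2 and 1 in the last 3. The middle start lay 34.4% of the way along the possible starts, and 34 of the 234 plus-strand clusters with 20 or more reads had a lower value (median 46.8%, quartiles 39.3% and 54.6%). The second PTMA cluster was balanced, with 12, 20, 17 and 5 reads in its 4 steps and the middle start at 45.4%. The third PARK7 cluster leaned further to the left than MIF, with 10 of its 15 reads starting in the first 25 nt and the middle start at 23.2%, but it held few reads. The second PARK7 cluster, of 9 reads, had its middle start at 35.9%, close to that of MIF. In the first PARK7 cluster, of 7 reads, it lay at 71.4%, toward the right.

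**Figure D4:**
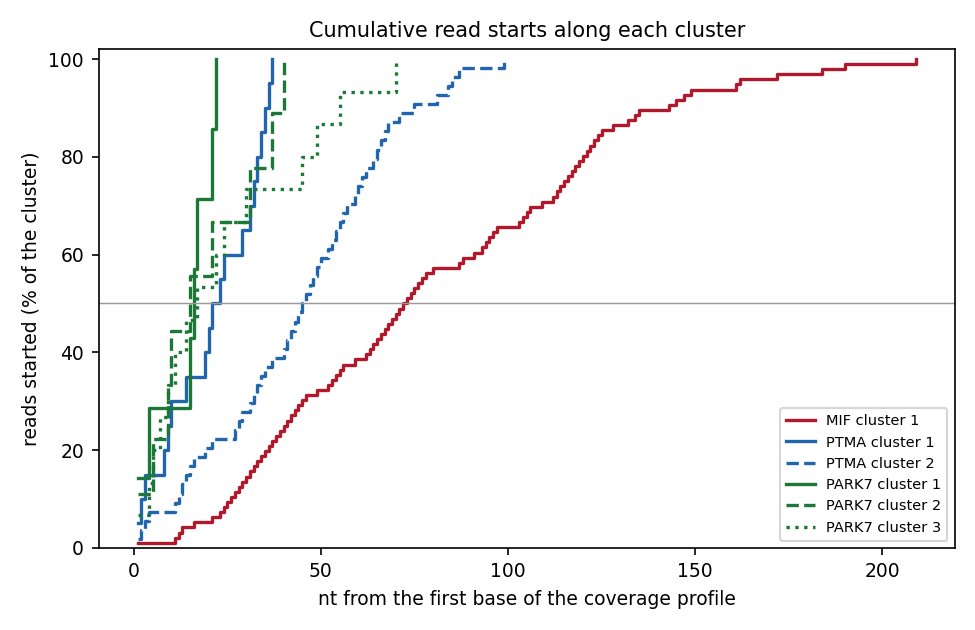
Percentage of each cluster's reads that had started by a given distance, in nt from the first base of the coverage profile, for the 6 clusters; the grey line marks 50%. PTMA cluster 2 crosses it at 45 to 46 nt and MIF at 72 to 73 nt, after which MIF rises on to its last start at 209 nt.

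The clusters were also checked for reads that fit elsewhere. By symbol, RefSeq (GRCh38.p14) lists 15 pseudogenes of PTMA, 2 of PARK7 and 0 of MIF. None of the 6 profiles recurred at another locus of the list. No stretch of 40 nt with 10 or more starts was shared with another locus either, over 128 such stretches of MIF, 22 and 66 of the PTMA clusters and 4 of the third PARK7 cluster. The first and second PARK7 clusters had too few starts for that search. A copy that the list leaves out escapes this search. Whether reads of the pseudogenes were placed at PTMA or PARK7 was not tested.

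For the cluster with the most reads of each gene, the listed clusters most like it were found by the distance between their ranks in score, reads and profile length over the 3566 primary clusters. They are named by position. Nearest to MIF was chr12:56510386-56510571 on the plus strand, with 94 reads over 239 nt and a score of 22, followed by chr6:31795512-31795727 on the plus strand, with 124 reads over 228 nt and a score of 20. Both had more summits than the 3 of MIF, with 4 and 5. Nearest to the second PTMA cluster was chr1:203830725-203830845 on the plus strand, with 50 reads over 122 nt and a score of 22, and 2 summits as in PTMA. The next was chr14:50053065-50053127 on the minus strand, with 40 reads over 128 nt and a score of 20. Nearest to the third PARK7 cluster were chr2:241075702-241075723 on the minus strand, with 15 reads over 93 nt, and chr5:114961658-114961750 on the minus strand, with 16 reads over 94 nt, both with a score of 10 and 1 summit.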

How the data were processed

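The data were 1 list of eIF3a PAR-iCLIP sites for 2 replicates, which it does not keep apart. The authors aligned the reads to hg19 with Bowtie, per the submitters' processing notes (no version given). How clusters were called and filtered, and what was done with duplicates and with reads of several placements, is not given in the sources used here. Each deposited signal is the highest read coverage of a cluster in whole reads, not normalized, and the deposited profile gives coverage in steps of length and height. There is no header, and both units come from the values. Library depth is unknown.

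Entries with 1 profile, on 1 strand and no further apart than the profile is long, were taken as 1 cluster. Coordinates count from 1. The splitting of profiles was tested on simulated data. The tools were matplotlib 3.10.9, scipy 1.17.1, pandas 2.3.3 and numpy 2.4.6 in Python 3.11.15. The named sites were all clusters of the 3 genes and, for the cluster with the most reads of each, the 2 others nearest in rank of score, reads and length. Members, lists and measures were chosen with earlier results of these data known. Alternatives counted every entry, merged clusters at most 50 nt apart, kept scores at or above the median of 5, widened the windows by 1000 nt or counted reads from start positions. The read-length search was added after seeing the data.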

Additional observations from a re-analysis of the deposited data

How the results depend on the processing

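Reads, number of clusters, highest score and summed profile length of MIF, PTMA and PARK7 were recomputed under the alternatives. Of 51 values, 45 equalled those reported and 50 stayed within the counting interval (reads and score) or within 1.5 times (clusters and length). The exception was the number of clusters of PTMA, which was 1 instead of 2 when clusters at most 50 nt apart were merged. That merging left PARK7 with 2 clusters, and counting every entry gave it 4, with 40 reads. Several alternatives could not change the values here, so the tally is weak evidence of stability. Reads counted from start positions equal the area divided by 25. Every cluster scored above the cutoff of 5, and the widened windows reached no other plus-strand site. Leaving out a replicate was not run, since values are not split by replicate. No paired analysis was possible because values are not split by replicate. The PARK7 clusters held 7 to 15 reads, which limits what can be said of their shape.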
